A study of Mus musculus with 2 samples.

Results

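Stress, companion layer and simple keratins were followed through the epithelium of back skin and preputial gland (PG) of the mouse. They are 10 genes, Krt6a, Krt6b, Krt16, Krt17, Krt75, Krt19, Krt24, Krt7, Krt8 and Krt18, chosen by their symbols among the 32285 genes that both count matrices list. No threshold on a measured value was applied, but earlier results of these data were known when they were chosen. Cells came from male C57BL/6 mice aged 52 weeks, untreated as far as the sources used here say. The paper names 3 mice as the source of both tissues, and their samples were pooled within each tissue. Skin was sampled as biopsies of the back, and PGs, paired sebaceous glands beside the penis that serve as a model of skin sebaceous glands (SGs), were taken whole. Each tissue is 1 droplet library, so there are no replicates, no test between tissues was possible, and tissue and library cannot be told apart.

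Keratins are the intermediate filament proteins of epithelia, and each filament is built from pairs of a type I and a type II chain. Among the 10 genes, Krt16, Krt17, Krt18, Krt19 and Krt24 encode type I chains and Krt6a, Krt6b, Krt7, Krt8 and Krt75 encode type II chains. Krt6a, Krt6b, Krt16 and Krt17 are made in parts of the hair follicle (HF) and are known to be induced in the epidermis by wounding and other stress. Krt75 is a keratin of the companion layer, a single sheet of cells between the outer and the inner root sheath of the HF. Krt7, Krt8, Krt18 and Krt19 are keratins of simple and glandular epithelia, Krt8 and Krt18 being the usual pair, and Krt24 is a type I keratin of HF stem cells.

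All type I members but Krt18 lie in the type I cluster on chromosome 11, 4 genes between positions 99279959 and 100261029 of GRCm38. Krt18 lies with the 5 type II members on chromosome 15, between positions 101412403 and 102032026, and is separated from Krt8 by 23873 bases. The neighbours Krt6b and Krt6a are 9634 bases apart, and Krt16 and Krt17 are 7312 bases apart. Because 3′ counting could confuse related genes, the last 500 bases of each member's transcripts were searched in windows of 90 bases. Krt6a and Krt6b shared no window with each other or with any other gene. Of the 411 windows of Krt16, 18 were also found in Gm11597, so a small part of its counts could be split with that gene.

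The RefSeq table of promoters (GRCm38.p6, 250 bases before to 50 bases after the annotated start) held 5 of the 10 genes. The promoters of Krt8 and Krt18 are printed because this adjacent pair was at least 2-fold higher in PG in basal-like, suprabasal-gated and upper follicle cells. Those of Krt75 and Krt24 are printed because their counts lay almost wholly in skin. Capitals mark 2 short motifs searched on both strands, TATAA and GGGCGG (shown as CCGCCC where it lies on the opposite strand).
Krt8, chr15:102004293-102004592, minus strand: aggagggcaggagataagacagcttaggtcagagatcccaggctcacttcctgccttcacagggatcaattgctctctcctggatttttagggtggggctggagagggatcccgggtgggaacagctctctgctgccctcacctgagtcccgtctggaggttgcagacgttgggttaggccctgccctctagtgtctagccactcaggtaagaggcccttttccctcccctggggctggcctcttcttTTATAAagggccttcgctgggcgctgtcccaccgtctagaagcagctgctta
Krt18, chr15:102027966-102028265, plus strand: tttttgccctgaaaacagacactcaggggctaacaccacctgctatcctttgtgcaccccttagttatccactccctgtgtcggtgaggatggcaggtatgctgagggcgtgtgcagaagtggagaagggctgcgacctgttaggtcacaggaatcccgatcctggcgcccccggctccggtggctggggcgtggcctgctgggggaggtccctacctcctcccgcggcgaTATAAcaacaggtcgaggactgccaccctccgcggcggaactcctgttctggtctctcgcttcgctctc
Krt75, chr15:101573855-101574154, minus strand: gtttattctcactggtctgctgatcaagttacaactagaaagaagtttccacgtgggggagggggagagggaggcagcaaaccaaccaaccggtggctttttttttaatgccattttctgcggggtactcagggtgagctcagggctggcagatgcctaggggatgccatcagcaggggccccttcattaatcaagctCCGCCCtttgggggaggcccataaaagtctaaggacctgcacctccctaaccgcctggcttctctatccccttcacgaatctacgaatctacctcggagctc
Krt24, chr11:99285213-99285512, minus strand: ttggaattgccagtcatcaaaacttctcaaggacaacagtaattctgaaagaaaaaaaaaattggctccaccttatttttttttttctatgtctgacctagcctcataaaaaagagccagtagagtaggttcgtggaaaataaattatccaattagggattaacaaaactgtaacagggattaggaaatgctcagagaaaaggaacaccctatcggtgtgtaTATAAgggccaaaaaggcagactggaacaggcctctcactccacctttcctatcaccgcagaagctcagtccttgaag
TATAA was present in the promoters of Krt8, Krt18 and Krt24, and in 24.9% of the 32851 promoters of the table. GGGCGG was present in those of Krt75 and Krt7, and in 35.7% of all promoters. The AP-1 motif TGANTCA, found in 7.81% of all promoters, was absent from these 300-base windows of all 5 genes. These matches describe letters in the windows and were not tested as binding sites.

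After the filters (at least 500 genes, at least 1000 unique molecular identifiers (UMIs), at most 10% mitochondrial UMIs), 8899 skin cells and 4699 PG cells were kept, with a median of 2386 and 2729 UMIs per cell. Cells were assigned to classes by marker genes that did not include the 10 keratins. Of the kept cells, 7142 in skin (80.3%) and 3663 in PG (78.0%) were epithelial. Skin held 2997 basal-like, 1996 suprabasal-like, 252 upper follicle and isthmus-like, 491 bulge and outer root sheath-like, 339 hair matrix and cortex-like, 463 inner root sheath-like and 21 sebocyte-like cells, and PG held 1952 basal-like, 324 upper follicle and isthmus-like and 748 sebocyte-like cells. Basal-like cells passed no other gate and were taken by UMIs of at least 4 basal markers, so they are a default class that may be mixed. Another 570 epithelial cells in skin and 483 in PG passed no gate either and had fewer basal markers. They are called other epithelial. Free RNA made up an estimated 4.02% to 13.7% of the UMIs of the epithelial classes, and the barcode lists of the libraries held 6794880 barcodes in skin and 737280 in PG although a single kit version is stated, so the chemistry may have differed as well.

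The gate for suprabasal cells took 148 PG cells that did not match the suprabasal cells of skin. Krt10 was at 35.9 CPM (UMIs of a gene per 1000000 UMIs of the class) in them against 11871 CPM in skin, Krt1 at 201 against 4024 CPM, and Mt4 at 0 against 1487 CPM. Sbsn (1237 against 8194 CPM) and Calm4 (526 against 4315 CPM) were lower in PG as well. Only Krtdap (8956 and 10057 CPM), Lgals7 (13050 and 18406 CPM) and Dmkn (4392 and 3762 CPM) were at similar levels in both. Clustering without the 10 keratins placed 70 of these 148 cells, and 202 of the 324 upper follicle and isthmus-like cells of PG, in the same cluster of 282 cells, led by Cst6, Ly6g6c and Krtdap. Another 49 of the 148 lay in a cluster of 206 cells led by S100a8, S100a9 and Car9. The cluster of 282 cells had more upper follicle than suprabasal markers among its 10 leading genes. The 148 cells are therefore called Krtdap-high PG cells below, and they are not ordered against the upper follicle and isthmus-like cells of PG. Krtdap was among the 10 leading genes of those cells too, so the name does not set the classes apart.

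For each level, the UMIs of a gene were summed over the cells of a class before scaling. Because each counted UMI marks the 3′ end of a transcript, no length scaling was applied, and levels are compared within a gene. Intervals are exact 95% intervals and cover counting error only. Fibroblasts, which should lack keratins, give the level reached by free RNA and doublets.

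**Figure D1:**
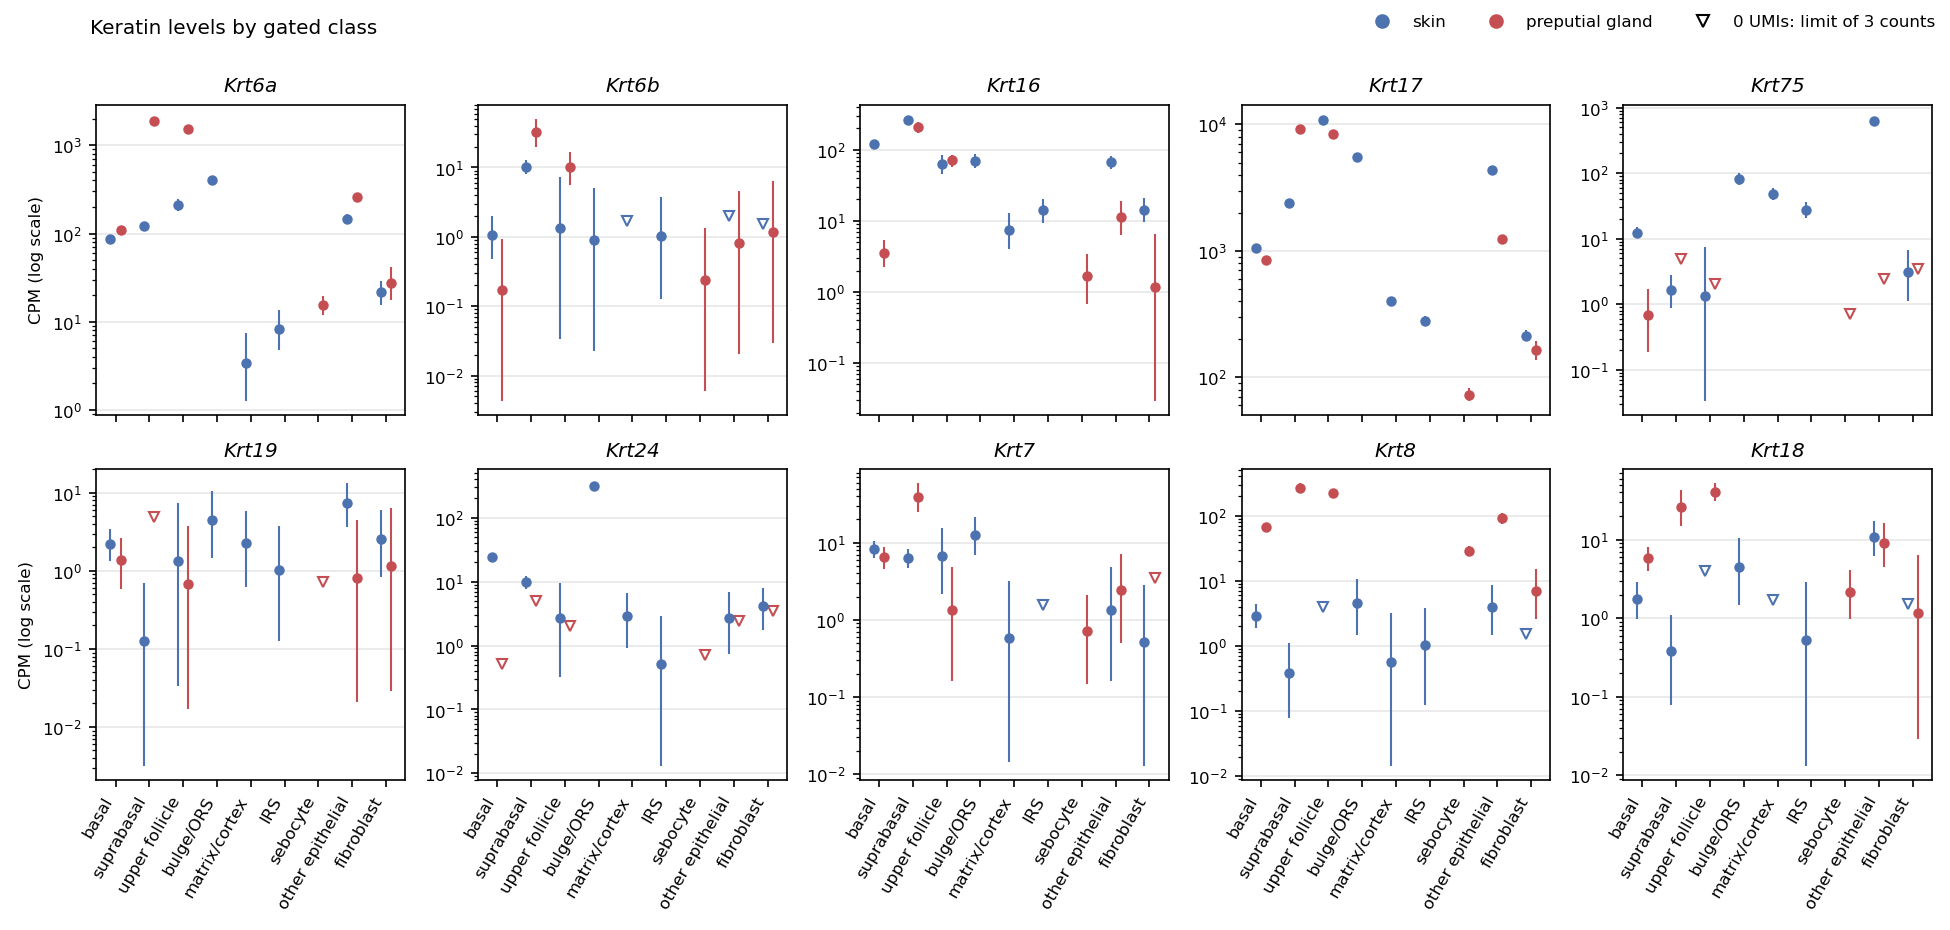
Level of each of the 10 keratins (CPM, logarithmic axis, a scale of its own in each panel) in the classes with at least 50 cells of skin (blue) and PG (red), with exact 95% Poisson intervals. Open triangles mark the limit of 3 counts where a class had 0 UMIs. Krt17 reached 10859 CPM in upper follicle and isthmus-like cells of skin and 8428 CPM in those of PG, Krt8 was higher in PG than in skin in every class shown for both, and Krt24 had 0 UMIs in PG.

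Krt6a, the main inducible type II keratin, was highest in HF cells in skin and in the Krtdap-high and upper follicle cells in PG. In skin it stood at 406 CPM (369 to 445) in bulge and outer root sheath-like cells, 210 CPM (179 to 245) in upper follicle and isthmus-like cells and 147 CPM (128 to 168) in other epithelial cells. Suprabasal-like cells had 122 CPM (115 to 130) and basal-like cells 86.6 CPM (80.5 to 93.1). Hair matrix and cortex-like cells, at 3.44 CPM, and inner root sheath-like cells, at 8.34 CPM, lay below the fibroblasts of skin, at 21.5 CPM. Thus the level was highest in the outer compartments of the HF, and these 2 inner classes as gated did not exceed background. Most Krt6a UMIs of skin lay elsewhere, however. Suprabasal-like cells held 36.5% of them and basal-like cells 27.8%, against 17.0% in bulge and outer root sheath-like and 5.95% in upper follicle and isthmus-like cells. The skin cluster with the highest level, 653 CPM in 271 cells led by Fam13a, Slc7a2 and Fst, was 47.6% basal-like. A cluster of 341 cells led by Krt73, Krt71 and Prr9, 88.0% of them inner root sheath-like, had 77.1 CPM and 3.81% of the Krt6a UMIs of skin. The whole inner root sheath-like class held 0.603%, so most Krt6a UMIs of this cluster lay in its other cells. The 13 inner bulge-like cells had 339 CPM (155 to 643) on 9 UMIs.

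In PG, Krt6a reached 1894 CPM (1786 to 2006) in Krtdap-high cells and 1542 CPM (1479 to 1606) in upper follicle and isthmus-like cells. Other epithelial cells had 257 CPM (230 to 287) and basal-like cells 109 CPM (101 to 118). Sebocyte-like cells, at 15.3 CPM, were below PG fibroblasts, at 27.8 CPM. With 1000 UMIs drawn from each cell (thinning), 72.3% of the Krtdap-high cells and 62.7% of the upper follicle and isthmus-like cells had a Krt6a UMI, compared with 1.65% of fibroblasts. In skin these shares stood at 18.9% of bulge and outer root sheath-like cells and 9.13% of upper follicle and isthmus-like cells, compared with 0.951% of fibroblasts.

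Krt6b, a close paralog of Krt6a, was rare in both tissues, with 95 UMIs in skin and 39 in PG. In skin, 81 of them lay in suprabasal-like cells (10.2 CPM), and a single cell held 49. Basal-like cells had 9 UMIs (1.06 CPM), and no other skin class had more than 2. In PG it stood at 32.7 CPM (20 UMIs) in Krtdap-high cells and 10.1 CPM (15 UMIs) in upper follicle and isthmus-like cells, against 1 UMI in 1952 basal-like cells. The order of its classes rests on these few UMIs.

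Krt16, the usual type I partner of the Krt6 chains, was an epidermal gene in skin. Suprabasal-like cells had 261 CPM (250 to 273) and basal-like cells 119 CPM (112 to 127). Bulge and outer root sheath-like (69.3 CPM), other epithelial (66.4 CPM) and upper follicle and isthmus-like cells (62.5 CPM) followed, and their intervals overlapped. Inner root sheath-like cells, at 14.1 CPM, did not differ from fibroblasts, at 14.3 CPM with 22 of 28 UMIs in 1 cell, beyond counting error. The 89 skin cells richest in Krt16 held 56.1% of its UMIs, so the class levels reflect a minority of cells. Indeed, 2 skin clusters together held most of it. A suprabasal cluster of 244 cells led by Sprr1a, Cldn4 and Sprr1b had 863 CPM and 31.7% of the UMIs, and a mainly basal cluster of 340 cells led by Ifi202b, Serpinb2 and Thbs1 had 861 CPM and 32.9%.

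In PG, Krt16 was close to absent from basal-like cells, at 3.57 CPM (2.21 to 5.45), and from sebocyte-like cells, at 1.68 CPM. It reached 208 CPM (173 to 247) in Krtdap-high cells and 70.7 CPM (57.9 to 85.6) in upper follicle and isthmus-like cells. Other epithelial cells had 11.4 CPM and PG fibroblasts 1.16 CPM. The summed Krt16 level of basal-like cells therefore differed between the tissues, while that of upper follicle and isthmus-like cells was close in both. A Krt16 UMI was found in 8.11% of the basal-like cells of skin and 0.922% of those of PG. The largest mainly basal cluster had 16.4 CPM in skin (1167 cells) and 0.507 CPM in PG (751 cells), so the skin level was not shared by all basal-like cells.

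Krt17, a type I keratin of the HF and its associated ducts, was the most widespread member and the source of 59.9% to 97.4% of the members' UMIs in the epithelial classes. In skin it stood at 1050 CPM (1029 to 1072) in basal-like, 2398 CPM (2364 to 2432) in suprabasal-like, 5557 CPM (5419 to 5697) in bulge and outer root sheath-like and 10859 CPM (10625 to 11097) in upper follicle and isthmus-like cells. Other epithelial cells had 4341 CPM. Hair matrix and cortex-like (404 CPM) and inner root sheath-like cells (280 CPM) were low, near the 214 CPM of fibroblasts. The basal-like level was not shared by all cells of that class. In skin clusters made up mainly of basal-like cells, Krt17 ranged from 164 CPM in 1167 cells, below fibroblasts, to 1354 CPM in 652 cells. Among the 5 skin clusters made up mainly of suprabasal-like cells it was uneven, from 87.3 CPM in 124 cells led by Cstdc5, Krt1 and Stfa3 to 2578 CPM in 78 cells led by the cornified envelope genes Lce1m, Lor and Crct1. Suprabasal-like cells held 37.1% of the Krt17 UMIs of skin, but each of these 5 clusters held at most 4.92%. Most Krt17 UMIs of that gate thus lay outside them. A cluster of 343 cells led by Krt79, Cst6 and Defb6 held 33.1% of the Krt17 UMIs of skin, at 16286 CPM.

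In PG, Krt17 stood at 9175 CPM (8937 to 9418) in Krtdap-high and 8428 CPM (8281 to 8577) in upper follicle and isthmus-like cells. Basal-like cells had 851 CPM (827 to 874) and other epithelial cells 1231 CPM. In PG clusters made up mainly of basal-like cells, Krt17 ranged from 104 CPM in 227 cells to 1754 CPM in 394 cells. Sebocyte-like cells, at 73.0 CPM (65.1 to 81.7), were below fibroblasts, at 164 CPM. Smooth muscle and pericyte-like cells were an exception among the non-epithelial classes, with 3028 CPM in 65 PG cells and 2045 CPM in 43 skin cells. These cells also had 257 CPM of Krt6a and 108 CPM of Krt8 in PG, and 12 of the 62 Krt19 UMIs of skin. Doublets with epithelial cells as the source of these UMIs were not tested.

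Krt75, a keratin of the companion layer, was a skin gene, with 1330 UMIs there and 4 UMIs in PG, all in 1 cell. Other epithelial cells held 71.1% of its UMIs, at 635 CPM (595 to 677). Bulge and outer root sheath-like cells had 81.0 CPM, but 82 of their 90 UMIs came from 1 cell. Hair matrix and cortex-like cells had 48.8 CPM (39.0 to 60.3), inner root sheath-like cells 27.6 CPM (20.7 to 36.1) and basal-like cells 12.4 CPM (10.2 to 15), with 3.07 CPM in fibroblasts. There was no gate for the companion layer, and the cells with Krt75 were divided among several classes.

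The cells with at least 5 Krt75 UMIs, 46 in all, held 80.9% of them, and 30 of the 46 were other epithelial. In these 46 cells Krt17 stood at 16310 CPM and Krt6a at 354 CPM, while Krt16 was at 27.2 CPM. Since Krt75 chose these cells, only the other genes describe them. Clusters made without the members placed 68.7% of the Krt75 UMIs in a cluster of 341 cells led by the inner root sheath genes Krt73, Krt71 and Prr9, at 697 CPM. Of these 341 cells, 300 were inner root sheath-like, but that whole class held only 3.98% of the Krt75 UMIs of skin. Most Krt75 UMIs of the cluster thus lay in its cells outside that class. A further 16.1% lay in a cluster of 82 cells led by Soat1, Gpnmb and Sct, at 716 CPM. The UMIs of Krt75 were thus divided between clusters, and which of these cells belong to the companion layer was not tested.

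Krt24 was also confined to skin, with 666 UMIs there and 0 UMIs in PG, where 0 among the 13412174 UMIs of epithelial cells allows at most 0.224 CPM. Bulge and outer root sheath-like cells had 309 CPM (277 to 343) and 51.5% of its UMIs. Basal-like cells had 24.6 CPM (21.4 to 28.2), suprabasal-like cells 9.83 CPM (7.77 to 12.3) and fibroblasts 4.09 CPM. The other epithelial classes with at least 50 cells lay between 0.521 and 2.87 CPM, below fibroblasts. Small sets were higher on 5 UMIs each, namely 188 CPM in 13 inner bulge-like cells, 18.5 CPM in 89 skeletal muscle-like cells and 8.83 CPM in 270 immune-like cells. A single cluster of 685 cells led by Postn, Grem1 and Wfdc3 held 70.9% of the UMIs. PG had only 8 bulge and outer root sheath-like cells, so the class in which the gene was highest could not be compared.

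Krt8, the type II chain of simple epithelia, had 45 UMIs in skin and 1161 in PG. In PG it stood at 268 CPM (229 to 312) in Krtdap-high cells, 223 CPM (200 to 248) in upper follicle and isthmus-like cells and 90.6 CPM in other epithelial cells. Basal-like cells had 68.1 CPM and sebocyte-like cells 28.7 CPM, each above the 6.94 CPM of fibroblasts. The first 2 classes did not differ beyond counting error (log2 ratio 0.27, -0.01 to 0.54). After thinning, 20.9% of the Krtdap-high cells, 21.0% of the upper follicle and isthmus-like cells and 6.61% of the basal-like cells had a UMI, compared with 0.183% of PG fibroblasts. The gene thus was spread over all epithelial classes of PG.

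In skin, Krt8 reached at most 4.50 CPM in a class with at least 50 cells, and fibroblasts had 0 UMIs. A cluster of 405 cells led by Cmah, Ppp1r3b and Tnc held 66.7% of the Krt8 UMIs of skin (28.8 CPM), 62.9% of those of Krt19 (37.4 CPM) and 36.6% of those of Krt18 (14.4 CPM). This cluster was 44.9% basal-like, and its Krt17 level was 7396 CPM. The low counts of the simple keratins in skin were therefore not spread evenly.

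Krt18, the type I partner of Krt8, was less abundant, with 41 UMIs in skin and 136 in PG. In PG it stood at 40.4 CPM in upper follicle and isthmus-like cells, 26.1 CPM in Krtdap-high cells, 8.98 CPM in other epithelial and 5.77 CPM in basal-like cells, against 1.16 CPM in fibroblasts. Sebocyte-like cells had 2.16 CPM. In skin, 16 of the 41 UMIs lay in other epithelial cells (10.7 CPM, 6.14 to 17.4) and the remaining classes had at most 4.50 CPM. The order of the PG classes was that of Krt8 apart from the upper 2, whose Krt18 levels did not differ beyond counting error (log2 ratio 0.63, -0.19 to 1.52).

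Krt7, a type II chain of ducts and glands, had 145 UMIs in skin and 72 in PG. In skin, bulge and outer root sheath-like cells had 12.6 CPM (6.89 to 21.2), basal-like cells 8.21 CPM (6.40 to 10.4), upper follicle and isthmus-like cells 6.64 CPM and suprabasal-like cells 6.30 CPM. These neighbours in the order did not differ beyond counting error, and inner root sheath-like cells had 0 UMIs. In PG the Krtdap-high cells stood out with 39.2 CPM, against 6.45 CPM in basal-like and 1.35 CPM in upper follicle and isthmus-like cells. These levels rest on 24, 38 and 2 UMIs.

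Krt19, a type I keratin of simple epithelia and of HF stem cells in some body sites, was near the detection limit. Skin held 62 UMIs and PG held 11. Other epithelial cells of skin had 7.38 CPM (3.68 to 13.2), bulge and outer root sheath-like cells 4.50 CPM (1.46 to 10.5) and basal-like cells 2.23 CPM (1.34 to 3.48), compared with 2.56 CPM in fibroblasts. Basal-like cells of PG had 1.36 CPM on 8 UMIs. Smooth muscle and pericyte-like cells of skin had 93.0 CPM (48.0 to 162) on the 12 UMIs named above. Apart from these and the skin cluster named with Krt8, its level was close to that of fibroblasts.

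Gland and skin were then compared as the log2 ratio of CPM of PG over skin. A gene was counted with at least 10 UMIs in both together, and 0 UMIs were given the limit of 3 counts. It was left out where both had at most 3 UMIs, or where that limit reached the level on the other side, so that no direction could be given. Over all epithelial cells, which differ in their mix of classes, 3 of 10 members were at least 2-fold higher in PG (Krt8, Krt18 and Krt6a), beside 16.5% of 15221 genes, and 4 were lower (Krt24, Krt75, Krt16 and Krt19), beside 24.2%. In basal-like cells, where all 10 genes were counted, 2 members were at least 2-fold higher in PG and 18.2% of 13356 genes were, and 4 members were at least 2-fold lower and 19.0% of genes were. Krt8 was higher (23.2-fold, log2 4.54, 3.95 to 5.18) and so was Krt18 (3.28-fold, log2 1.71, 0.80 to 2.70). Krt16 was 33.5-fold lower (log2 -5.06, -5.76 to -4.44), Krt75 18.3-fold lower on 4 UMIs of 1 cell, Krt24 at least 48.4-fold lower, and Krt6b 6.22-fold lower on 1 UMI (log2 -2.64, -8.09 to 0.21). Krt6a (log2 0.33), Krt17 (-0.30), Krt7 (-0.35) and Krt19 (-0.71) were within 2-fold. The median of the 10 log2 ratios was -0.53, and that of all genes was 0.05. Sizes depended on how the class was drawn. Krt8 moved to 7.0 with a stricter gate and 9.04 with classes taken from clusters, and Krt75 to -1.45 and -2.51. The small ratio of Krt17 turned to 0.12 and 0.20 in the same settings, so it has no stable direction. The size of the Krt8 value of 9.04 is uncertain. Of the skin clusters made up mainly of basal-like cells, only that of 188 cells had any Krt8 (1.09 CPM, 2.22% of its skin UMIs).

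In upper follicle and isthmus-like cells, 6 members were counted, of which 4 were at least 2-fold higher in PG, beside 16.2% of 9347 genes, and 0 were at least 2-fold lower, beside 20%. Krt6a was 7.34-fold higher (log2 2.88, 2.64 to 3.12). Krt6b was 7.60-fold higher on 15 and 1 UMIs (log2 2.93, 0.23 to 8.32), and at least 1.01 on that scale without the richest cell. Krt8 was at least 55.9-fold and Krt18 at least 10.1-fold higher, since skin had 0 UMIs of both. Krt16 (log2 0.18, -0.33 to 0.71) and Krt17 (log2 -0.37, -0.41 to -0.33) were within 2-fold. With a stricter gate, which left 109 skin and 76 PG cells, Krt16 moved to -1.20.

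For the suprabasal gate the sets differ in their markers, as given above, and the ratios compare 2 gated sets rather than a shared cell type. With that limit, 8 members were counted, 6 were at least 2-fold higher in PG, beside 15.8% of 10911 genes, and 1 was at least 2-fold lower, beside 23.3%. Krt8 stood 709-fold higher on 164 and 3 UMIs (log2 9.47, 7.90 to 11.76), Krt18 69.1-fold on 16 and 3 UMIs (log2 6.11, 4.31 to 8.53), Krt6a 15.5-fold (log2 3.95, 3.83 to 4.08), Krt7 6.22-fold, Krt17 3.83-fold and Krt6b 3.2-fold. Krt24 was at least 2.01-fold lower and Krt16 was within 2-fold (log2 -0.33). In the alternative that joins the suprabasal and upper follicle gates, added after the data were seen, Krt16 was at -1.14, Krt7 at 0.97 and Krt6b at 0.82, so the calls of Krt7 and Krt6b depend on the division. Krt6b was also at 0.22 with the stricter gate, and without the richest cell Krt24 was within 2-fold (-0.78), leaving 0 lower.

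Sebocyte-like cells were few in skin, so only 3 members were counted, of which 0 were at least 2-fold higher in PG, beside 15.3% of 7532 genes, and 1 was at least 2-fold lower, beside 21.5%. Krt17 had 278 CPM (188 to 397) in the 21 skin cells and 73.0 CPM in the 748 PG cells (log2 -1.93, -2.47 to -1.34). Of its 30 UMIs in skin, 23 came from 1 cell, and without the richest cell of each class the levels were 67.9 and 59.3 CPM (log2 -0.20), so the call is lost. Krt8, at 28.7 CPM in PG and 0 UMIs in skin, was counted only as at least 1.03-fold higher in PG. The bound is close to no difference because 0 UMIs in these skin cells allows up to 27.8 CPM.

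**Figure D2:**
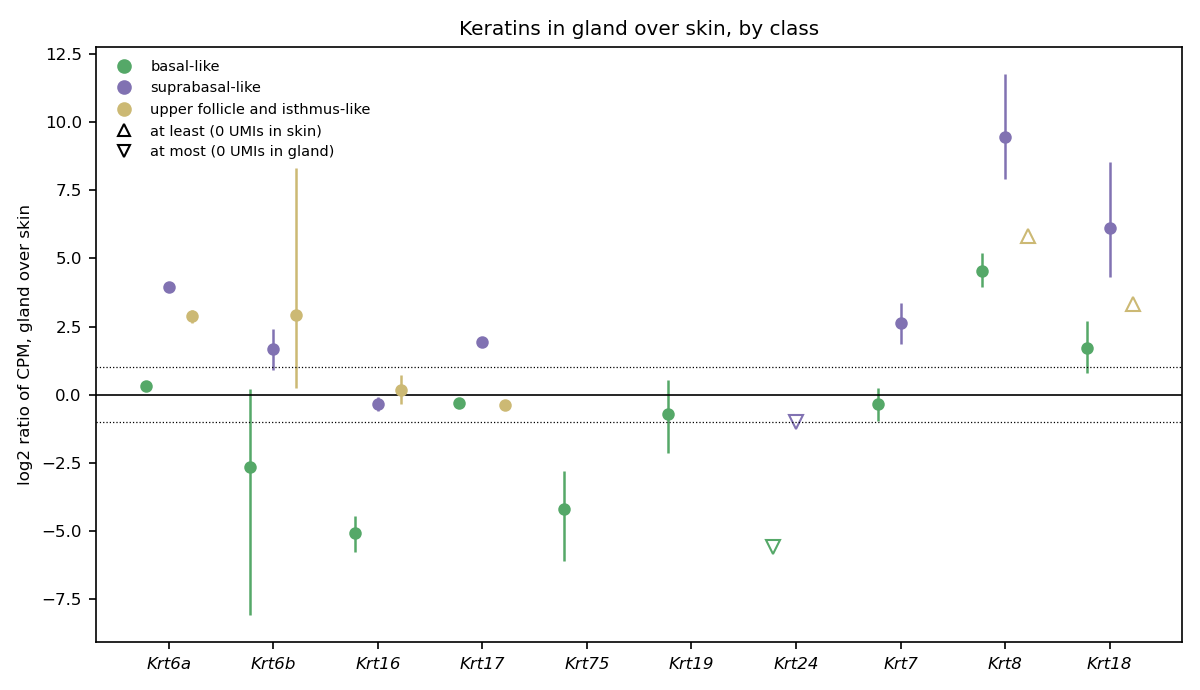
Log2 ratio of CPM in PG over skin for each keratin in 3 gated classes, with exact 95% intervals. Triangles are bounds where a class had 0 UMIs, and dotted lines mark 2-fold. Krt8 and Krt18 lie above the upper line in all 3 classes, Krt16 lies at -5.06 in basal-like cells and within 2-fold in the others, and Krt17 is within 2-fold in 2 of the 3.

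Within each tissue, the classes were set against basal-like cells. In skin, suprabasal-like cells had 3 of 10 counted members at least 2-fold higher, beside 8.25% of all genes, and 5 lower, beside 18.4%. Krt6b (log2 3.27, or 2.10 without the richest cell of each class), Krt17 (1.19) and Krt16 (1.13) were higher, and Krt75, Krt19, Krt24, Krt8 and Krt18 were lower. As given above, most Krt17 UMIs of the suprabasal-like cells lay outside the clusters made up mainly of them. In upper follicle and isthmus-like cells of skin, 2 of 8 were higher, beside 9.22%, namely Krt17 (log2 3.37) and Krt6a (1.28), and 2 were lower, beside 14.4%, namely Krt75 and Krt24, joined by Krt16 (-1.22) without the richest cells. Bulge and outer root sheath-like cells had 6 of 10 higher, beside 12.0%, and 0 lower, beside 7.14%. They were Krt24 (log2 3.65), Krt75 (2.70), Krt17 (2.40), Krt6a (2.23), Krt18 (1.36) and Krt19 (1.01), the last 2 on 5 UMIs each and with intervals that included no difference. Without the richest cell of each class, an alternative added after the data were seen, 3 of 8 were higher, Krt24, Krt17 and Krt6a, and Krt75 was at -0.32 (7.26 and 9.04 CPM).

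The inner layers of the HF went the other way. In hair matrix and cortex-like cells, 1 of 9 was higher (Krt75, log2 1.97), beside 15.3%, and 6 were lower, beside 20.9%. In inner root sheath-like cells, 1 of 10 was higher (Krt75, log2 1.15), beside 13.8%, and 8 were lower, beside 19.1%. Of the lower members, Krt8 in hair matrix and cortex-like cells rested on 1 UMI. In inner root sheath-like cells, Krt19 and Krt8 rested on 2 UMIs each and Krt18 on 1. The intervals of these calls on 1 or 2 UMIs included no difference. Krt75 was thus the only member at least 2-fold above its basal level in those 2 classes.

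In PG, upper follicle and isthmus-like cells had 6 of 7 counted members at least 2-fold above basal-like cells, beside 8.53% of all genes, and 1 below, beside 26.4%. Krt16 was at log2 4.31, Krt6a at 3.82, Krt17 at 3.31, Krt18 at 2.81 and Krt8 at 1.71, while Krt6b rested on 15 and 1 UMIs and Krt7 was the member below. In Krtdap-high cells, 7 of 7 were above, beside 8.99%, and 0 below, beside 26.6%, with Krt16 at 5.86, Krt6a at 4.12 and Krt17 at 3.43. Sebocyte-like cells had 0 of 6 above, beside 7.51%, and 6 below, beside 20.6%. Over sebocyte-like, basal-like and upper follicle and isthmus-like cells of PG, Krt6a, Krt16, Krt17, Krt8 and Krt18 thus rose in that order. For Krt16, sebocyte-like and basal-like cells did not differ beyond counting error (log2 -1.09, -2.57 to 0.20). In skin, Krt6a and Krt17 were likewise higher in upper follicle than in basal-like cells, while Krt16 was not (log2 -0.93). Over all skin classes, Krt6a, Krt16 and Krt17 were each highest in another class. PG held too few bulge and outer root sheath-like cells to compare that class.

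The members' weight among the soft keratins, the 10 genes and 17 other non-hair keratins, varied with class. In skin it was 6.48% of the UMIs of basal-like cells, 8.69% of suprabasal-like, 30% of bulge and outer root sheath-like and 43.8% of upper follicle and isthmus-like cells. In PG it was 18.2% of basal-like, 55.2% of upper follicle and isthmus-like and 65.2% of Krtdap-high cells. The other soft keratins include Krt5, Krt14, Krt15, Krt1, Krt10 and Krt79, which are markers of the gates. The shares within a class are therefore partly set by its gate. With that limit, the types differed in skin, where in upper follicle and isthmus-like cells the members made up 63.7% of type I but 2.65% of type II UMIs. In PG the same class had 64.9% of type I and 32.1% of type II. The type II total was 8281 CPM in skin and 5533 CPM in PG, with Krt6a at 210 and 1542 CPM and the non-member Krt79 at 6353 and 3064 CPM. The sum of Krt5, Krt14 and Krt15, the basal keratins, was 18395 CPM in basal-like cells of skin and 4554 CPM in those of PG.

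**Figure D3:**
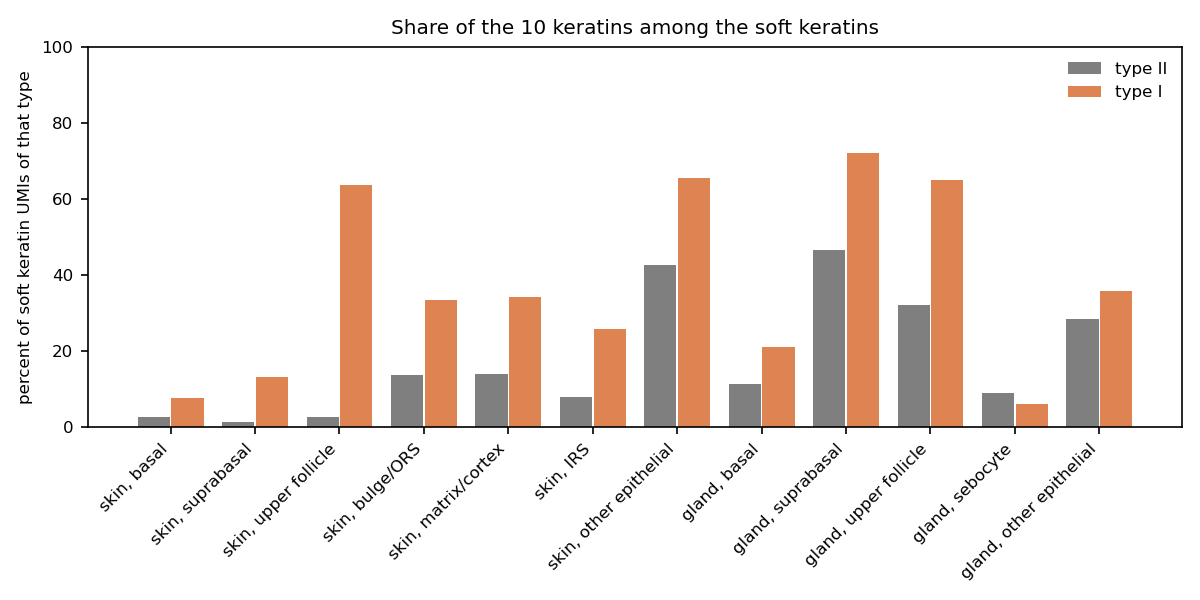
Share of the 10 keratins among the soft keratin UMIs of the same type (percent, from 0) in each class with at least 50 cells, with type II in grey and type I in orange. In upper follicle and isthmus-like cells type I shares are 63.7% in skin and 64.9% in PG, while type II shares are 2.65% and 32.1%. The other soft keratins include markers of the gates.

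Members were also detected in the same cells, after each cell was thinned to 1000 UMIs. In PG, 92.3% (89.7 to 94.4) of the 533 epithelial cells with a Krt6a UMI had a Krt17 UMI, against 23.6% of the 3130 cells without. In skin these shares were 58.8% (54.1 to 63.4) and 29.5%, over classes that differ in both genes. Within the bulge and outer root sheath-like cells of skin they were 69.9% (59.5 to 79.0) and 66.1%, which overlapped. Among suprabasal-like cells of skin, 28.1% of the cells with Krt6a had Krt16, against 6.05% of those without. Krt75 and Krt17 went together in other epithelial cells of skin, where 81.5% (70.0 to 90.1) of the 65 cells with Krt75 had Krt17, against 48.9%. For Krt24 the sign varied with the class, but the intervals overlapped in bulge and outer root sheath-like cells. There Krt17 was detected in 56.4% (46.6 to 65.8) of cells with Krt24 and 69.8% (64.9 to 74.4) of those without. In basal-like cells of skin these shares were 39.5% and 26.5%, and in all epithelial cells of skin 48.6% and 30.8%.

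In basal-like cells of PG, 47.3% of the 129 cells with Krt8 had Krt17, against 29.0% of the others. For the pair Krt8 and Krt18 the counts were too few to separate the shares, at 2.06% (0.76 to 4.43) and 0.919% of PG epithelial cells. Shared detection within a library also follows depth within the limit set by thinning and free RNA, and no test was made over cells.

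Over the 12 epithelial classes with at least 50 cells, 7 of skin and 5 of PG, correlations of log2(CPM + 1) describe which levels ran together. The classes of a tissue share a library, and a class shares its cells' depth, so these are descriptions. The highest values among the members were Krt8 with Krt18 (r = 0.87), Krt75 with Krt19 (r = 0.87, on few Krt19 UMIs) and Krt6a with Krt17 (r = 0.84). Krt16 with Krt17 was at 0.77 and Krt6a with Krt16 at 0.62. The lowest was Krt6b with Krt19 (r = -0.59).

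Among 4669 other genes, those most alike Krt6a were Cryab, a small heat shock protein (r = 0.97), Capg, an actin capping protein (0.955), and Fam167a (0.945). For Krt16 they included the growth factor Hbegf (0.909) and the galectin Lgals3 (0.902). Krt17 was closest to Ppfibp2 (0.945), the syndecan Sdc1 (0.944) and Filip1l (0.921). Krt75 was closest to Hs2st1, Slc16a7 and Med1 (0.934 to 0.948), and Krt24 to Pdzrn4, Il31ra and Angptl7 (0.937 to 0.956). Pdzrn4, Il31ra and Angptl7 were all highest in bulge and outer root sheath-like cells of skin, as Krt24 was. This follows largely from their choice by correlation with Krt24 over the same classes. Krt8 was closest to R3hdm4, Pfn1 and Chd9 (0.964 to 0.978), and Krt18 to Pbxip1, Cd81 and the protease inhibitor Slpi (0.953 to 0.963). For the scarce members they were Ostf1, Rnase1 and Nipal2 for Krt6b (0.874 to 0.894), Wasf2, Mill1 and Pxdc1 for Krt7 (0.798 to 0.84) and Fbxl5, Gli3 and Ep300 for Krt19 (0.886 to 0.939).

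Because stress keratins can respond to tissue handling, immediate early and heat shock genes were measured beside them. All 13 genes of a dissociation response list were at least 2-fold lower in basal-like cells of PG than in those of skin, with a median log2 ratio of -3.15 against 0.05 for all genes. Fosb (26.7 and 713 CPM, log2 -4.74) and Hspa1b (198 and 617 CPM, -1.64) were the ends. In upper follicle and isthmus-like cells all 13 were lower as well (median -2.58), and with the suprabasal gate 10 were. Their summed level in basal-like cells was 9935 CPM in skin and 1232 CPM in PG, while in fibroblasts it was 6354 CPM in skin and 8528 CPM in PG. The epithelial cells of the libraries thus differed in this response in the direction in which Krt16 differed in basal-like cells, and its part in that result was not tested between tissues.

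Within each library, basal-like cells were divided into 4 equal bins by the share of these 13 genes. In skin the bins had 613, 2514, 6787 and 25380 CPM of the list and a median of 2131 to 3021 UMIs per cell. Krt16 was at 19.7, 55.6, 231 and 145 CPM in them, Krt6a at 63.4, 68.6, 132 and 77.3 CPM, and Krt17 at 954, 1048, 1092 and 1087 CPM. In the lowest bin of skin the interval of Krt16, 13.9 to 27.2 CPM, overlapped that of skin fibroblasts (14.3 CPM, 9.51 to 20.7). The whole of the PG basal-like cells had 3.57 CPM, and PG fibroblasts had 1.16 CPM. In PG the bins had 0, 249, 697 and 3988 CPM of the list and a median of 2551 to 3210.5 UMIs. Krt17 was at 273, 510, 988 and 1638 CPM in them, Krt6a at 30.3, 43.1, 117 and 249 CPM, Krt8 at 57.5, 60, 72.4 and 82.9 CPM, and Krt16 between 0.757 and 6.12 CPM. Krt17 and Krt6a therefore went with the list in PG, Krt16 went with it in skin up to the third bin, and Krt8 was higher in PG in every bin.

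**Figure D4:**
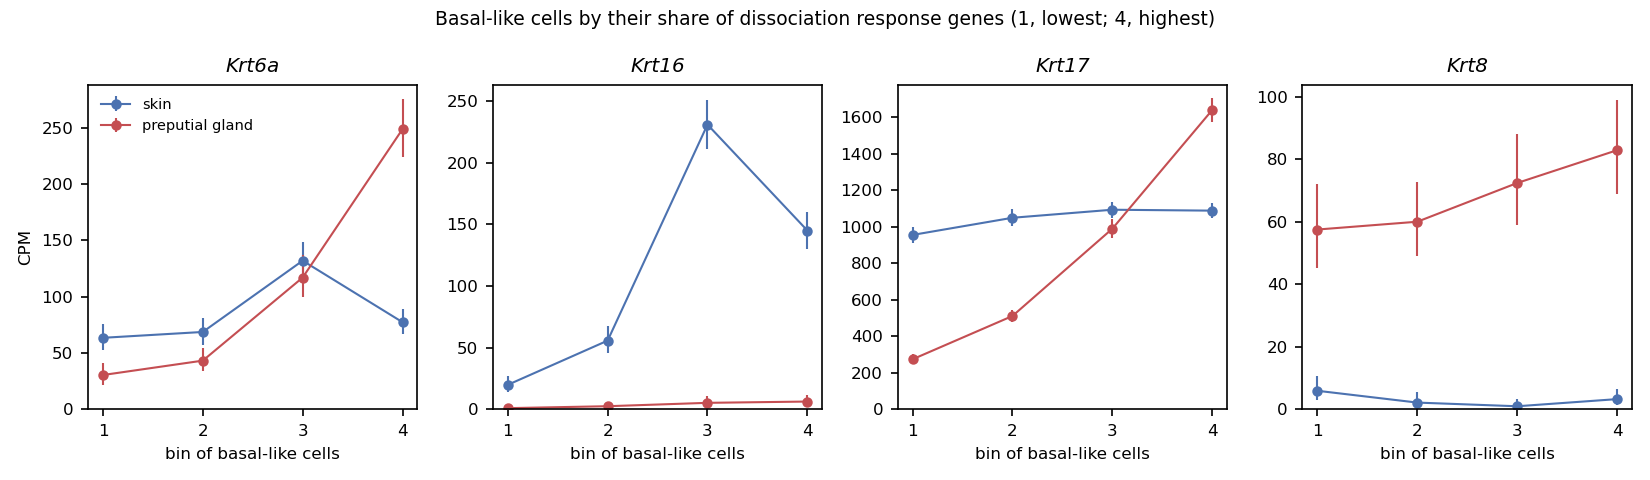
Level of Krt6a, Krt16, Krt17 and Krt8 (CPM, axes from 0) in basal-like cells divided into 4 equal bins by their share of 13 dissociation response genes, for skin (blue) and PG (red), with exact 95% Poisson intervals. Krt16 stands between 19.7 and 231 CPM in skin and at most at 6.12 CPM in PG, and Krt17 runs from 273 to 1638 CPM across the PG bins but from 954 to 1092 CPM across those of skin.

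Further gene lists describe the same basal-like cells, with no test. Over all genes, 18.2% were at least 2-fold higher and 19.0% at least 2-fold lower in these cells of PG. Of 10 counted soft keratins outside the members, 8 were at least 2-fold lower in basal-like cells of PG and 1, Krt79, was higher (105 and 51.6 CPM). Krt15 stood at 1313 CPM in PG and 7404 CPM in skin, Krt14 at 1907 and 7175 CPM, and Krt5 at 1334 and 3816 CPM. Among 11 barrier stress and wound genes, 4 were higher and 4 lower. The iron-binding protein Lcn2 (2418 and 2.93 CPM), the cornified envelope gene Sprr1a (214 and 13.4 CPM) and S100a8 and S100a9 were higher, and the growth factors Epgn (0 UMIs in PG and 85.8 CPM in skin) and Hbegf (21.7 and 163 CPM) were among the lower. In upper follicle and isthmus-like cells 4 of 8 of these genes were higher and 0 lower, with Lcn2 at 4676 and 3.99 CPM and Sprr1a at 4102 and 601 CPM.

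Of 11 regulators linked to stress keratins, 3 were lower in basal-like cells of PG, beside 19.0% of all genes, and 1 was higher, beside 18.2%. The lower were Gli1, Klf4 (18.7 and 384 CPM) and Klf5 (25.6 and 295 CPM), and the higher was Gli2. Trp63 (log2 0.37), Stat3 (-0.05), Nfe2l2 (0.43) and Egfr (0.39) were within 2-fold. Among 8 counted simple epithelium genes, Wfdc2 (21.2 and 0.939 CPM) and Elf5 (2.04 and 0.117 CPM, the latter 1 UMI) were higher and 1 was lower. Epcam, the epithelial adhesion molecule, was equal within counting (288 and 297 CPM). Of the 10 plakins and linkers that anchor keratins to junctions, 4 were lower, Ppl, Evpl, Jup and Dst, and 1, Pkp2, was higher on 2.72 and 0.469 CPM. Desmoplakin (Dsp) was at 728 and 813 CPM. Most counted genes of the simple epithelium list were thus within 2-fold, unlike Krt8 and Krt18.

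Cycling cells, defined by UMIs of at least 2 of 6 proliferation genes, were 314 of the basal-like cells of skin and 331 of those of PG. In skin, Krt24 stood at 2.88 CPM in cycling and 28.9 CPM in other basal-like cells (log2 -3.32, -5.21 to -1.94), and Krt16 at 89.4 and 125 CPM. In PG, Krt6a stood at 60.7 and 123 CPM (log2 -1.02, -1.38 to -0.68) and Krt17 at 611 and 920 CPM. Krt8 (75.1 and 66.1 CPM) and, in skin, Krt17 (1084 and 1044 CPM) were close in cycling and other cells. Cycling basal-like cells thus had less Krt24 in skin and less Krt6a in PG.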

How the data were processed

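Single cells of back skin and PG were profiled with 10x Genomics 3′ chemistry, 1 library per tissue from 3 pooled mice. The authors deposited the UMI counts of all genes and barcodes, produced with Cell Ranger 4 on mm10 per the submitters' processing notes, neither normalized nor filtered, 37675226 UMIs in skin and 26288071 in PG. The annotation release is not given in the sources used here. From these counts, barcodes with at least 500 genes, 1000 UMIs and at most 10% mitochondrial UMIs were kept. No barcode passed even looser limits (200 genes, 500 UMIs) in both libraries. The lists shared 77142 barcodes.

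The 10 keratins, the marker and gene lists and the comparisons were chosen with earlier results of these data known, and the scoring rule of the gate was set after seeing the data. A cell was assigned to the class with the highest marker score if that score was at least 2 with at least 2 markers. Basal-like cells had no score of their own. They were cells that reached no such score and had UMIs of at least 3 epithelial and at least 4 basal markers. Doublets were not removed from the main values but left out in an alternative, as 0.8% of the cells per 1000 kept cells by doublet score. Leiden clusters (scanpy 1.11.5, igraph 0.11.9, resolution 1.0) were made without the 10 keratins.

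UMIs were summed per class as CPM, with exact Poisson intervals for levels, exact binomial intervals for ratios and Clopper-Pearson intervals for shares (95%, counting error only, since cells of a pool are no replicates). Ratios against 0 UMIs used 3 counts as the limit, and none was formed when both sums were at or under 3. All 10 members were named, with the 3 genes of highest correlation for each (a few results are not reported here), among genes reaching 50 CPM in a class and leaving out markers, and the ends of each list. Free RNA was estimated from barcodes with at most 100 UMIs. Scripts were tested on simulated data. Python 3.11.15, numpy 2.4.6, scipy 1.17.1, pandas 2.3.3 and matplotlib 3.10.9 were used. No column lacked a sample.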

Additional observations from a re-analysis of the deposited data

Results flagged for a closer look

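Members moved in opposite directions between the tissues when a class was set against basal-like cells. Krt16 in upper follicle and isthmus-like cells was at a log2 ratio of -0.93 in skin (62.5 and 119 CPM) and 4.31 in PG (70.7 and 3.57 CPM). Without the richest cell of each class the skin value was -1.22. Its level in the upper follicle class was close in both, and the basal-like cells differed. For Krt8, cells of the suprabasal gate were at -2.96 in skin (3 and 25 UMIs) and 1.98 in PG (164 and 401 UMIs), and for Krt18 they were at -2.22 in skin (3 and 15 UMIs) and 2.18 in PG (16 and 34 UMIs). The gated sets differ in Krt10, Krt1 and Mt4 between tissues. With 1 library per tissue, none of these differences was tested.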

How the results depend on the processing

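The ratios of PG over skin were recomputed under 13 other settings, of which 2 were added after the data were seen, the joining of the suprabasal-like and upper follicle and isthmus-like gates and the leaving out of the cell richest in a member. No ratio past 2-fold turned its direction, in 203 recomputed values of 18 ratios, and 194 stayed past 2-fold. Settings that left under 10 UMIs, or a bound from 0 UMIs without a direction, gave no value and were not counted. A bound therefore could not turn. Over all ratios, 94 recomputed values left the interval of the main ratio, or changed where it was a bound, and 202 did not. In the suprabasal gate, the number of members at least 2-fold lower in PG, 1 (Krt24), was 0 with higher minimums of genes and UMIs per cell, with at most 5% mitochondrial UMIs, without the highest doublet scores, with the stricter gate, after thinning, after subtracting free RNA and without the richest cell, and 2 with the joined gates, where 4 were higher. In sebocyte-like cells that number, 1, was 2 with the mean of the cells' shares and after thinning, and 0 without the richest cell. In upper follicle and isthmus-like cells, 0 lower members became 1 with the stricter gate (Krt16, at -1.20) and 1 with classes from clusters (Krt7, at 22.0 CPM in skin and 10.8 CPM in PG). The class in which a member was highest, taken for all 10 in skin, was the same for 6 with classes from clusters and for 6 after thinning. In PG, of 8 members with a highest class that could be recomputed, it was the same for 2 with classes from clusters, which hold no suprabasal class in PG, and 1 with the stricter gate, where the 46 Krtdap-high cells left are under the minimum of 50 cells. Classes from clusters held no suprabasal class in PG and no sebocyte class in skin, so they gave no value for those comparisons. Causes of these changes were not tested unless stated. No paired analysis was possible because the mice were pooled into 1 library per tissue, so cells cannot be traced to a mouse.

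Depth limits the scarce members. Krt6b, Krt19, Krt7 and Krt18 rest on 11 to 145 UMIs per library, and differences among their classes were mostly not detectable. Sebocyte-like cells of skin were too few for Krt8. Pooling hides the spread between mice, and the libraries may differ in chemistry.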

Other observations

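The spread of the members over single cells differed. In skin, the 89 cells richest in a member held 90.2% of the UMIs of Krt75, 56.1% of Krt16, 54.5% of Krt24, 46.2% of Krt6a and 33.4% of Krt17. In PG, the 47 cells richest in a member held 71.8% of the UMIs of Krt16, 25.7% of Krt6a, 23.9% of Krt17 and 19.1% of Krt8. Krt8 was thus spread over many PG cells at few UMIs each, with 763 of 4699 cells carrying it and at most 11 UMIs in a cell, while 141 PG cells had at least 10 UMIs of Krt6a.

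A PG cluster of 206 cells led by S100a8, S100a9 and Car9 had 1088 CPM of Krt6a, 5807 CPM of Krt17, 191 CPM of Krt8 and 97.3 CPM of Krt16, and 29.7 CPM of Krt7, the highest Krt7 level of the 17 PG clusters. It held 49 of the 148 Krtdap-high cells and was 47.6% basal-like. In skin, a cluster of 652 cells led by Cidea, Sostdc1 and Aldh3a1, 80.8% of them basal-like, had the highest Krt7 level of the 30 skin clusters (22.3 CPM) and 1354 CPM of Krt17, but 44.6 CPM of Krt6a and 22.3 CPM of Krt16.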
